A study of Mus musculus with 4 samples.

Results

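The cells described here come from the developing mouse cerebral cortex and hold counts of inhibitory genes and of the transcription factor Sp8. They were chosen by their own counts in single-cell RNA libraries of the cortex. Whether each of them is an interneuron of the cortex was not tested. A cell belonged to the set if it had at least 500 counts over at least 300 genes, at most 10% mitochondrial counts, at least 1 count of Sp8, none of Lhx6, at least 2 counts over Gad1, Gad2 and Dlx6os1, and at most 2 counts over the cell cycle genes Mki67, Top2a and Cenpf. The rule found 183 of the 7210 cells that passed the filters on cells, or 2.54%. They are called Sp8 cells below.

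Cortical interneurons are born outside the cortex, in the ganglionic eminences of the ventral forebrain, and migrate into it. Cells of the medial eminence switch on Lhx6 and later make the somatostatin and parvalbumin interneurons. Sp8 marks cells of the caudal eminence, which also use Prox1, Nr2f2 (COUP-TFII) and the serotonin receptor Htr3a, and cells of the dorsal lateral eminence, which use Meis2, Pax6, Etv1 and Tshz1 and largely supply the olfactory bulb. Dlx1, Dlx2, Dlx5 and Dlx6 are homeobox genes shared by forebrain inhibitory neurons, and Gad1 and Gad2 make GABA.

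Cortex was taken from 1 Tsku knockout (KO) and 1 wild-type (WT) mouse at P0, the day of birth. At embryonic day 14.5 (E14.5) it was taken from 1 mouse labelled as a knockout and 1 WT mouse. Tsku encodes Tsukushi, a secreted protein. Tissue was taken apart with trypsin, and the bead-based Asteria kit received 15000 cells per mouse. The Sp8 cells numbered 50 in the P0 KO, 40 in the P0 WT, 79 in the library labelled E14.5 knockout and 14 in the E14.5 WT. Each group is 1 animal, so KO and WT are set side by side without a test, and intervals on a single library cover counting error only.

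The 4 libraries held 1436, 1047, 4107 and 620 passing cells, in the order P0 KO, P0 WT, library labelled E14.5 knockout and E14.5 WT, with between 5606381 and 14404051 counts in all. Tsku had 0 counts in the P0 KO, against 42 in the P0 WT, and 74 in the library labelled E14.5 knockout, against 54 in the E14.5 WT. Per 1000000 counts this was 0 in the P0 KO and 6.95 in the P0 WT (5.01 to 9.40), and 5.14 in the library labelled E14.5 knockout (4.03 to 6.45) and 9.63 in the E14.5 WT (7.24 to 12.6). Tsku transcripts in a library labelled knockout go against that label, although their level was below that of the E14.5 WT. The E14.5 libraries also differed in sex, with 6707 counts of Xist and 1 of Ddx3y in the library labelled E14.5 knockout, against 3 of Xist and 496 of Ddx3y in the E14.5 WT. Label and sex cannot be told apart at E14.5. Depth per Sp8 cell differed as well, with median counts of 4262 in the P0 KO, 3777.5 in the P0 WT, 2585 in the library labelled E14.5 knockout and 5624 in the E14.5 WT. Libraries shared 6 barcodes, none of them among the Sp8 cells.

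The genes of the rule are given as a description. Sp8 stood at 835 CPM (counts of a gene per 1000000 counts summed over the Sp8 cells of a library) in the P0 KO, 657 in the P0 WT, 496 in the library labelled E14.5 knockout and 267 in the E14.5 WT. Of the 183 cells, 82 held a single Sp8 count and 64 held 3 or more, with 10 as the highest. Just inside the bound on inhibitory genes were 35 cells with 2 or 3 counts of Gad1, Gad2 and Dlx6os1, and just outside it were 16 cells with 1 count. The bound on the cell cycle let in 33 cells with 1 or 2 counts and kept out 5 cells with 3 or 4. Lhx6 alone kept out 4 cells. Gad2 was detected in 96.0% of cells in the P0 KO, 80.0% in the P0 WT, 87.3% in the library labelled E14.5 knockout and 85.7% in the E14.5 WT. Dlx6os1 overlaps Dlx6 on the other strand, and no source used here gives the strand setting of the counting, so their counts may be mixed.

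Dlx1, the marker of the set that the rule did not use, was detected in 98.0% of the Sp8 cells of the P0 KO, 100% of those of the P0 WT, 87.3% in the library labelled E14.5 knockout and 100% in the E14.5 WT. Cells with at least 2 counts of the glutamatergic genes Neurod6, Neurod2 and Slc17a7 and none of the inhibitory genes, called projection neurons below, held Dlx1 in 2.3% to 4.3% of cells. The inhibitory genes enter both gates in opposite ways, so this gap in Dlx1 is a description and no test of the set. Sp8 itself was counted in 57.5% of the inhibitory cells without Lhx6 in the P0 KO, 47.1% in the P0 WT, 17.2% in the library labelled E14.5 knockout and 19.4% in the E14.5 WT, against 0.586% of such projection neurons (18 of 3071). Of the markers of other cell types, the microglial list reached at most 4.2 CPM and the endothelial list at most 17.6 CPM. Slc17a7 had no count. Neurod6 had 28 counts in 13 of 79 cells and Neurod2 14 counts in 7 cells in the library labelled E14.5 knockout, against at most 1 and 2 counts in any other library, and 72 of these 79 cells held fewer than 2 counts of the glutamatergic genes. The haemoglobin genes reached 27716 CPM in the E14.5 WT, against 164 to 294 CPM in the other libraries, nearly all from 1 cell. The radial glia list stood at 848 CPM in the P0 KO and 2341 CPM in the P0 WT. Its gene Ptprz1 was detected in 24 of 50 cells in the P0 KO and 23 of 40 in the P0 WT, and 1 cell held 66% of the Fabp7 counts of the P0 WT.

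Sp8 cells were a larger part of the inhibitory cells in both P0 mice than in both E14.5 mice, and the intervals of their share of all cells overlapped between KO and WT. These shares were not tested over animals. They were 3.48% of all passing cells in the P0 KO (exact Clopper-Pearson 95% interval 2.60 to 4.56) and 3.82% in the P0 WT (2.74 to 5.17). At E14.5 they were 1.92% in the library labelled E14.5 knockout (1.53 to 2.39) and 2.26% in the WT (1.24 to 3.76). The ratio of KO to WT was 0.911 at P0 (0.589 to 1.42) and 0.852 at E14.5 (0.479 to 1.63), and both intervals held 1.

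Among inhibitory cells outside the cell cycle, Sp8 cells took 43.1% in the P0 KO (33.9 to 52.6), 29.9% in the P0 WT (22.3 to 38.4), 12.1% in the library labelled E14.5 knockout (9.68 to 14.8) and 13.6% in the E14.5 WT (7.63 to 21.8). Both P0 intervals lay above both E14.5 intervals. With every cell thinned to 1500 counts the shares were 42.9% in the P0 KO, 32.9% in the P0 WT, 8.46% in the library labelled E14.5 knockout and 9.23% in the E14.5 WT. The P0 KO to WT ratio of this share was 1.44 (0.934 to 2.25), and 1.65 (1.05 to 2.60) without cells that carry blood or glial markers. All inhibitory cells together were 8.08% of the P0 KO, against 12.8% of the P0 WT, a ratio of 0.631 (0.488 to 0.815). Lhx6 cells, defined alike with at least 1 Lhx6 count and no Sp8, took 25.0% of the inhibitory cells in the P0 KO, 36.6% in the P0 WT, 29.1% in the library labelled E14.5 knockout and 30.1% in the E14.5 WT.

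**Figure D1:**
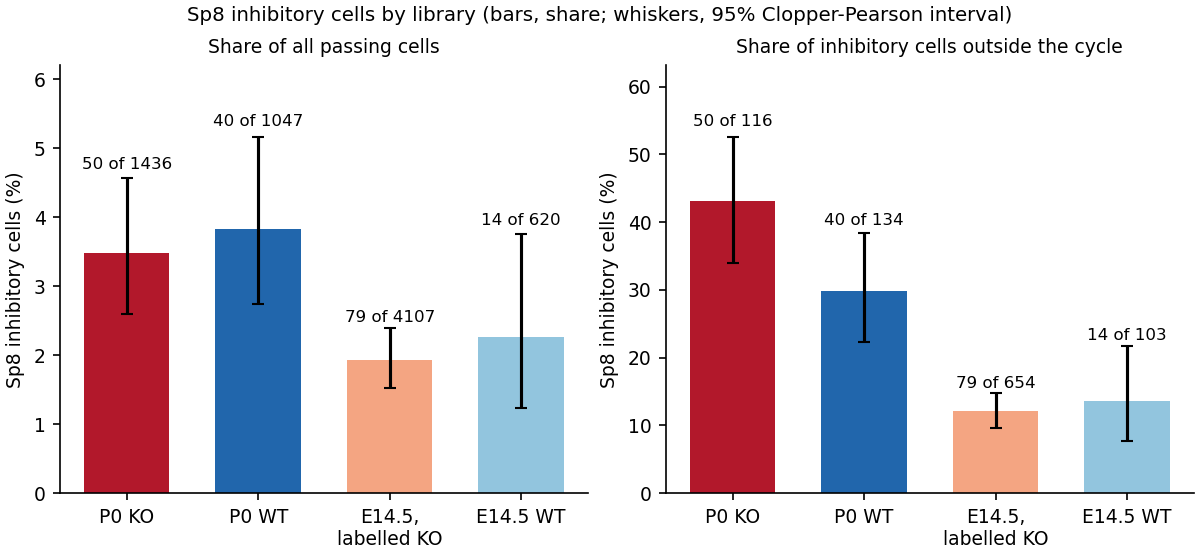
Share of Sp8 cells in each library, as percent of all passing cells and as percent of inhibitory cells outside the cell cycle, with Clopper-Pearson 95% intervals as whiskers. Of inhibitory cells, Sp8 cells were 43.1% in the P0 KO and 29.9% in the P0 WT, above the 12.1% in the library labelled E14.5 knockout and the 13.6% in the E14.5 WT.

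Genes of the 2 origins in the name of the set were counted in each cell. More cells held a dorsal lateral gene (Meis2, Etv1, Tshz1 or Pax6) than a caudal gene (Prox1 or Nr2f2). The dorsal lateral group has more genes, and its part in this order was not tested. Detection of these genes does not give the origin of a cell, since both groups were also detected in 18.2% of projection neurons. A count of Prox1 or Nr2f2 was present in 25 of 50 cells (50%) in the P0 KO, 14 of 40 (35.0%) in the P0 WT, 30 of 79 (38.0%) in the library labelled E14.5 knockout, and in the E14.5 WT 8 of 14 (57.1%). The log2 ratio of KO to WT was 0.51 at P0 (-0.48 to 1.57) and -0.59 at E14.5 (-1.75 to 0.75). In Lhx6 cells the share was 3.45% in the P0 KO, 6.12% in the P0 WT, 29.5% in the library labelled E14.5 knockout and 41.9% in the E14.5 WT. The intervals of Sp8 and Lhx6 cells lay apart in both P0 libraries and overlapped in both E14.5 libraries. Over all libraries 77 of 183 Sp8 cells (42.1%) held one of these genes, against 21.4% of the 3053 projection neurons without Sp8. A count of Meis2, Etv1, Tshz1 or Pax6 was present in 161 Sp8 cells (88.0%), against 87.7% of projection neurons, which use Meis2 too. By library the share was 90% of Sp8 cells, against 79.3% of Lhx6 cells, in the P0 KO, and 95% against 49.0% in the P0 WT. It was 83.5% of Sp8 cells, against 51.6% of Lhx6 cells, in the library labelled E14.5 knockout, and 85.7% against 58.1% in the E14.5 WT. The intervals of Sp8 and Lhx6 cells overlapped in the P0 KO and in the E14.5 WT.

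Both groups of genes were detected in 59 Sp8 cells (32.2%), only the dorsal lateral ones in 102 (55.7%), only the caudal ones in 18 (9.84%) and neither in 4. Projection neurons had median depths of 4938, 4565, 2988 and 7295 counts in the P0 KO, the P0 WT, the library labelled E14.5 knockout and the E14.5 WT, above those of the Sp8 cells. Summed over the caudal list, a Sp8 cell held a median of 6.91 counts per 10000 in the P0 KO (highest 69.4), 4.08 in the P0 WT (highest 74.8), 3.75 in the library labelled E14.5 knockout (highest 96.2) and 9.97 in the E14.5 WT (highest 56.2). The dorsal lateral list gave medians of 35.4 counts per 10000 in the P0 KO, 40.0 in the P0 WT, 27.6 in the library labelled E14.5 knockout and 25.8 in the E14.5 WT. The caudal sum was the greater one in 11 cells of the P0 KO (22%), 10 in the P0 WT (25%), 21 in the library labelled E14.5 knockout (26.6%) and 6 in the E14.5 WT (42.9%).

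**Figure D2:**
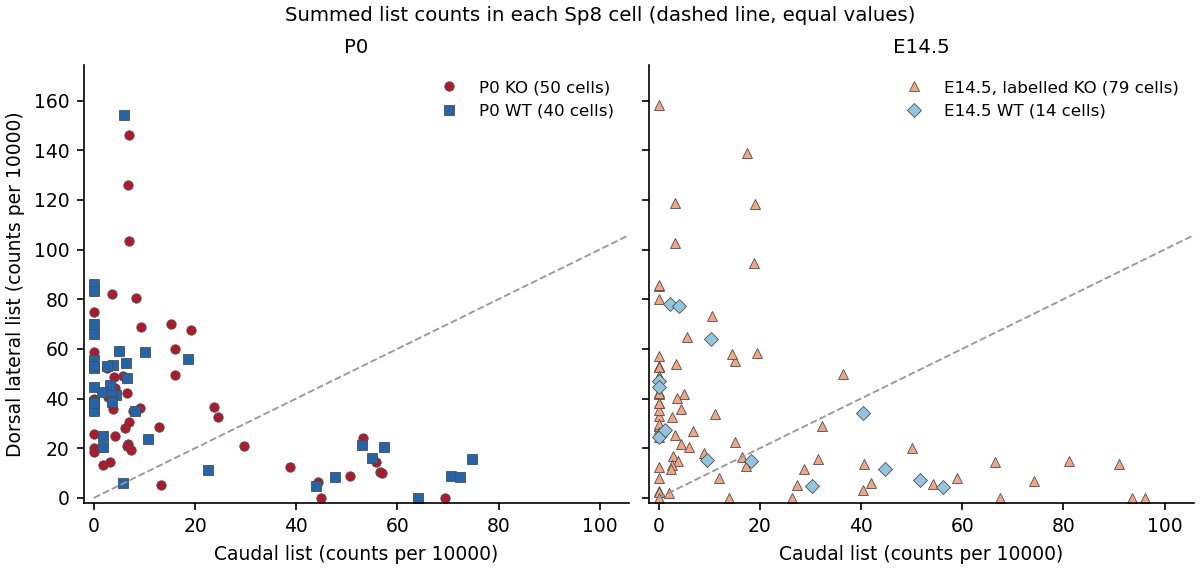
Counts per 10000 of the caudal list (x axis) and of the dorsal lateral list (y axis) in each Sp8 cell, with P0 and E14.5 in separate panels and the dashed line marking equal sums. Cells lie along both axes, with 11 of 50 P0 KO and 10 of 40 P0 WT cells below the line, where the caudal sum is the greater.

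Some pairs of these genes shared cells and others did not. Meis2 was detected in 31 of 58 cells with Prox1 (53.4%), against 107 of 125 cells without it (85.6%), and the share was lower beside Prox1 in each of the 4 libraries. Nr2f2 was detected in 34 of the 58 cells with Prox1 (58.6%), against 19 of 125 without it (15.2%). Htr3a, an ionotropic serotonin receptor, was detected in 29 of 58 (50%), against 17 of 125 (13.6%). Etv1, a factor of olfactory bulb interneurons, was detected in 64 of 138 cells with Meis2 (46.4%), against 3 of 45 cells without it (6.67%). Pax6 was detected in 23 of 58 cells with Prox1 (39.7%), against 46 of 125 without it (36.8%), and Tshz1 in 23 of 58 (39.7%), against 55 of 125 (44.0%). Beside Meis2, Pax6 was detected in 58 of 138 cells (42.0%), against 11 of 45 cells without Meis2 (24.4%), with the order turned round in both E14.5 libraries. These shares come from the same cells and depth and are given without a test.

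Later markers of caudal interneurons were scarce. Vip and Sncg had no count in any Sp8 cell, Cck had 1 count in the P0 KO and 1 in the P0 WT, and Npas1 had 1 count in the P0 KO and 9 in the P0 WT. Calb2 had 0 counts in the P0 KO, 1 in the P0 WT, 12 in the library labelled E14.5 knockout and 2 in the E14.5 WT. Th, the dopamine enzyme of some olfactory bulb interneurons, and Vax1 had no count either.

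Compared with Lhx6 cells of the same 4 mice, Sp8 cells were higher in Pax6, Meis2 and Pbx3 of the dorsal lateral list and in Nr2f2, Htr3a and Adarb2 of the caudal list, and lower in 6 of 8 tested genes of the medial list. The comparison used counts summed per mouse and cell group and edgeR's quasi-likelihood test with the library as block and Benjamini-Hochberg adjustment over 4671 genes. Of these, 53 were higher in Sp8 cells (1.13%) and 80 lower (1.71%), 133 in all (2.85%). The genes of the rule were left out of the test. Below, 4 values in a row are those of the P0 KO, the P0 WT, the library labelled E14.5 knockout and the E14.5 WT. The numbers of calls ran from 53 without the P0 KO library to 222 without the library labelled E14.5 knockout, with 90 without the P0 WT and 95 without the E14.5 WT.

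Pax6 had 312, 405, 156 and 277 CPM in Sp8 cells of these libraries, against 6.66, 0, 0 and 4.76 CPM in their Lhx6 cells. The groups did not overlap, and the difference passed at an adjusted p of 1.7e-05 in edgeR. Its fitted fold rests on 2 counts in the Lhx6 cells and is no bound. In the E14.5 WT, 1 Sp8 cell held 85% of the Pax6 counts. Meis2, a TALE homeobox factor, had 1740, 1912, 1976 and 1601 CPM in Sp8 cells, against 299, 138, 215 and 61.8 CPM in Lhx6 cells, a log2 difference of 3.47 (SE 0.27, edgeR adjusted p = 4.9e-05). Pbx3, a partner of Meis factors, had 123, 182, 336 and 331 CPM in Sp8 cells, against 20.0, 60.5, 114 and 57.1 CPM in Lhx6 cells, a difference of 1.92 (edgeR adjusted p = 0.0018). Etv1 (0.71) and Tshz1 (0.80) did not pass. Of the 12 dorsal lateral genes, 6 had too few counts for the test.

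Of the caudal list, 7 of 14 genes had enough counts for the test, 3 were higher and none lower, with a median log2 difference of 1.74, against 0.00 over all genes tested. Htr3a had 185, 264, 67.3 and 85.4 CPM in Sp8 cells, against 6.66, 4.32, 21.5 and 57.1 CPM in Lhx6 cells (log2 2.57, SE 0.56, edgeR adjusted p = 0.034). Adarb2, an RNA-editing family member used as a caudal marker, had 141, 241, 63.1 and 149 CPM in Sp8 cells, against 0, 4.32, 41.3 and 9.51 CPM in Lhx6 cells (log2 2.76, SE 0.63, edgeR adjusted p = 0.041). Nr2f2, an orphan nuclear receptor, had 141, 246, 408 and 491 CPM in Sp8 cells, against 0, 25.9, 253 and 162 CPM in Lhx6 cells (log2 1.74, SE 0.41, edgeR adjusted p = 0.044). Prox1, a homeobox factor, had 387, 211, 114 and 277 CPM in Sp8 cells, against 6.66, 17.3, 82.6 and 124 CPM in Lhx6 cells, and did not pass (log2 1.95, adjusted p = 0.074). All 3 caudal calls were lost without the P0 KO (adjusted p 0.088 for Nr2f2, 0.18 for Htr3a, 0.17 for Adarb2) and without the P0 WT (0.11, 0.11 and 0.14). Nr2f2 and Adarb2 were also lost without the E14.5 WT (0.14 and 0.13), and Nr2f2 without the mixed cells, those with 2 or more counts of Neurod6, Neurod2 and Slc17a7 (0.077). Cnr1, Nr2f1 and Npas3 did not pass.

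Genes of the medial lineage were low in Sp8 cells. Maf, a transcription factor of medial interneurons, had 30.8, 82.1, 42.0 and 10.7 CPM in Sp8 cells, against 1557, 1646, 474 and 927 CPM in Lhx6 cells (log2 -4.62, SE 0.30, edgeR adjusted p = 1.7e-05). Sst, the peptide somatostatin, had 0, 5.87, 50.5 and 0 CPM in Sp8 cells, against 233, 229, 305 and 984 CPM in Lhx6 cells (log2 -4.29, edgeR adjusted p = 0.0014). Npy, Cux2 and Mef2c were also lower (log2 -3.90, -4.67 and -3.60), as was Sox6 (-1.56, edgeR adjusted p = 0.0044). Mef2c was lost without the P0 KO (adjusted p = 0.069). Satb1 did not pass (adjusted p = 0.20). Nkx2-1 had 2 counts and Lhx8 1 count in Sp8 cells, all in the library labelled E14.5 knockout.

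Outside these lists, the largest increases passing the rule for named genes were in Ccnd2, a cyclin, at 5936, 6377, 1938 and 3138 CPM in Sp8 cells, against 146, 30.2, 375 and 352 CPM in Lhx6 cells (log2 4.27, edgeR adjusted p = 0.0036). Islr2 (3.44), Tiam2 (3.34), Meis1 (3.04), Rgs16 (2.29) and Zeb1 (2.27) followed. Rgs16 was lost without the P0 KO (adjusted p = 0.073) and without the E14.5 WT (0.063), and Zeb1 without the P0 KO (0.15). Lower were Dpp10, an accessory subunit of potassium channels, at 0, 0, 8.41 and 0 CPM in Sp8 cells, against 146, 121, 102 and 133 CPM in Lhx6 cells, Nxph1 (-4.29), the chemokine receptor Ackr3 (-3.62) and Rph3a (-3.79). Rph3a was lost without the P0 KO (adjusted p = 0.073) and in DESeq2 (0.076).

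Of 9 tested genes of the neurotransmitter receptor list, 4 were lower in Sp8 cells and none higher. Gria4, an AMPA receptor subunit, had 8.79, 11.7, 16.8 and 10.7 CPM in Sp8 cells, against 186, 138, 116 and 304 CPM in Lhx6 cells (log2 -3.66, edgeR adjusted p = 0.00044). Gria1 (-3.19), Grm5 (-2.45) and Grik2 (-1.62) were lost without the P0 KO, and Grm5 also without the P0 WT and without the E14.5 WT. DESeq2 did not call Grm5 or Grik2 (adjusted p 0.33 and 0.12). Among the 10 GABA lineage genes Dlx1 was higher (log2 1.00, edgeR adjusted p = 0.0044) and Erbb4, a neuregulin receptor, lower (-1.41, 0.0027). Dlx2, Dlx5, Dlx6, Sp9, Slc32a1 and Abat did not pass. Dlx1as, which overlaps Dlx1 on the other strand, was lower (-0.99, 0.0052), and reads of the pair may be mixed. Zic1 was higher (2.03, 0.0035), as was Igfbpl1 of the immature list (1.59, 0.0023). Mapt, a microtubule-associated protein, was lower (-1.29, 0.0068), and was lost without the P0 KO (0.059).

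**Figure D3:**
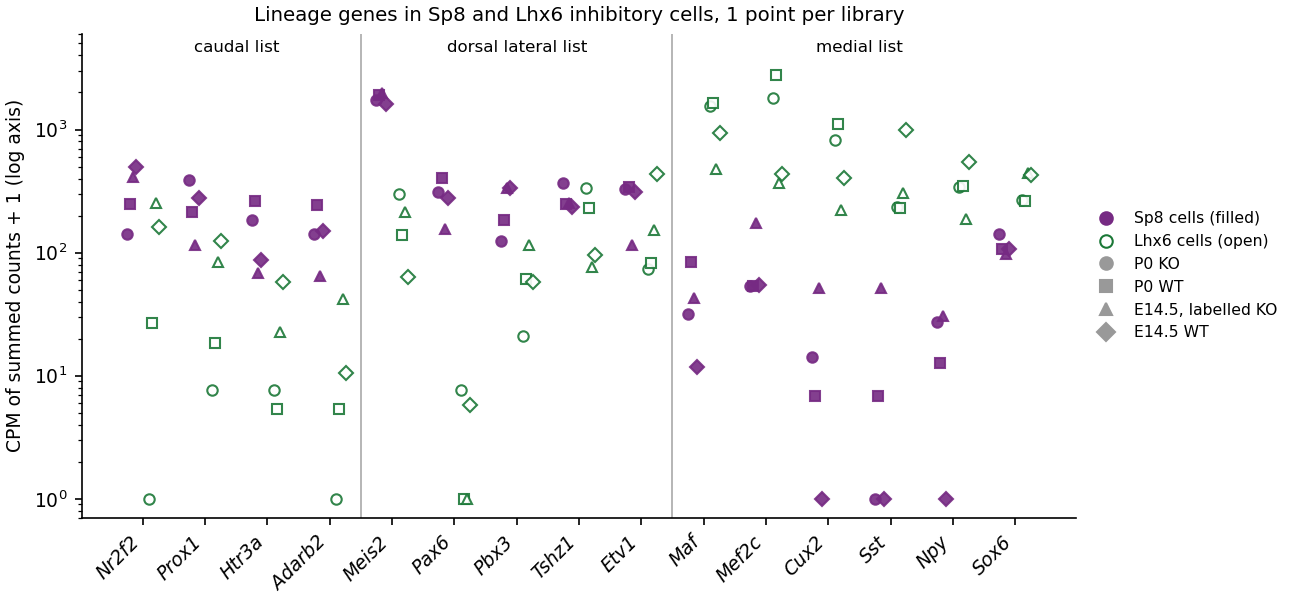
Level in CPM + 1, on a log axis, of genes of the caudal, dorsal lateral and medial lists in Sp8 cells (filled) and Lhx6 cells (open), 1 point per library. Pax6 and Meis2 of all 4 libraries were higher in Sp8 cells and Maf was lower, 10.7 to 82.1 CPM against 474 to 1646 CPM.

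Against the inhibitory cells with neither Sp8 nor Lhx6, 521 in number, the Sp8 cells had more of the Dlx genes and less of the striatal factors Foxp1 and Isl1. In this comparison Meis2 did not set the Sp8 cells apart, and Prox1, Htr3a, Pax6 and Etv1 did. By the same test over 4872 genes, 43 were higher in Sp8 cells (0.883%) and 39 lower (0.800%), 82 in all (1.68%). The other cells include any whose Sp8 went undetected. They held more radial glia markers than Sp8 cells in the P0 KO, 5346 against 848 CPM, and similar levels in the P0 WT, 2323 against 2341 CPM, and the part of these cells in the result was not tested.

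Foxp1, a forkhead factor of striatal projection neurons, had 35.2, 182, 101 and 64.0 CPM in Sp8 cells, against 99.8, 1198, 686 and 1037 CPM in the other inhibitory cells (log2 -2.80, SE 0.24, edgeR adjusted p = 4.7e-05). Isl1, a LIM homeobox factor of striatal cells, had 0, 0, 156 and 64.0 CPM in Sp8 cells, against 0, 20.1, 390 and 341 CPM in the other cells (log2 -1.70, edgeR adjusted p = 0.010). Of the 6 striatal genes tested these 2 were lower and none higher, and DESeq2 left Isl1 at an adjusted p of 0.0501. Dlx1 was higher by 1.38 on the log2 scale (edgeR adjusted p = 0.00017), Dlx2 by 1.53 (0.0021), Sp9, a zinc finger paralogue of Sp8, by 1.24 (0.0024) and Dlx5 by 1.33 (0.013). No gene of the GABA lineage list was lower. Dlx5 was lost without the P0 WT (adjusted p = 0.095) and with at least 4 counts of inhibitory genes per cell (0.086).

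Of the lineage lists, 2 of 7 caudal genes were higher, Htr3a at 185, 264, 67.3 and 85.4 CPM in Sp8 cells, against 76.3, 8.04, 13.6 and 14.9 CPM in the other cells (log2 2.49, edgeR adjusted p = 0.0069), and Prox1 (1.19, 0.012). Of 7 dorsal lateral genes Pax6 was higher (1.92, 0.0026), as was Etv1 (2.35, 0.012), at 330, 340, 114 and 309 CPM in Sp8 cells, against 170, 44.2, 31.4 and 2.48 CPM in the other cells. Meis2 gave a log2 difference of -0.20 (adjusted p = 0.71). Prox1 was lost without the P0 WT (adjusted p = 0.071) and without the E14.5 WT (0.065), and Etv1 without the P0 WT (0.090), without mixed cells (0.052) and in DESeq2 (0.21). With at least 4 counts of inhibitory genes per cell, Htr3a (0.12) and Prox1 (0.29) were lost. Zic1 was higher (1.23, edgeR adjusted p = 0.0069), and was lost without the E14.5 WT (0.068) and without the library labelled E14.5 knockout (0.053).

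Ccnd2 was higher here too (log2 1.82, edgeR adjusted p = 0.00012), with Tiam2 (1.89), St18 (2.00), Cdca7 (1.58), Dcbld1 (2.56), Sel1l3 (2.16) and Atad2 (1.92). Lower were Pou3f1 (-2.33), Gucy1a1 (-2.32), Neurod2 (-2.51), Alcam (-2.50), Lsamp (-2.46), Sorl1 (-2.45), Rph3a (-2.42), Foxp4 (-2.39) and Neto1 (-2.22). The axon guidance receptor Robo1 was lower (-1.70, edgeR adjusted p = 0.0060), and the synaptic adhesion gene Nrxn3 was higher (0.86, 0.016). Counts of calls were 29 without the P0 WT, 47 without the E14.5 WT, 85 without the P0 KO and 128 without the library labelled E14.5 knockout, against 82 with all libraries. Without the P0 WT, the calls of Dcbld1, Atad2, Neurod2, Alcam, Lsamp, Sorl1, Rph3a, Foxp4, Neto1 and Nrxn3 were lost. Sel1l3 was lost without the P0 KO and without the E14.5 WT. Dcbld1, Atad2, Alcam, Lsamp, Rph3a and Foxp4 were also lost without the E14.5 WT, and Atad2, Alcam and Rph3a without the P0 KO.

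Between E14.5 and P0 the clearest difference within the Sp8 cells was in the Zic genes and Isl1, which were near 0 at P0. Nfib, a nuclear factor of maturing neurons and glia, was higher at P0. In edgeR, Htr3a was also higher and Nr2f2 and Pbx3 were lower, but DESeq2 called none of these last genes. The test compared the summed Sp8 cells of 2 P0 mice with those of 2 E14.5 mice in edgeR over 4578 genes, of which 47 were higher at P0 (1.03%) and 66 lower (1.44%), 113 in all (2.47%). Meis2 gave 0.00, Prox1 0.75 (adjusted p = 0.41) and Dlx1 0.68 (0.23) on the log2 scale.

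Zic1, Zic2 and Zic4 were lower at P0. Zic1, a zinc finger factor of the septum and other medial forebrain regions, had 70.3 CPM in the P0 KO and 17.6 in the P0 WT, against 1514 in the library labelled E14.5 knockout and 736 in the E14.5 WT (log2 -4.63, SE 0.43, edgeR adjusted p = 8.5e-07). It was detected in 12% of Sp8 cells in the P0 KO and 7.5% in the P0 WT, against 50.6% in the library labelled E14.5 knockout and 42.9% in the E14.5 WT. In projection neurons it was detected in 9.1% of cells in each P0 library, in 13.8% in the library labelled E14.5 knockout and in 12.8% in the E14.5 WT. Thus Zic1 detection at P0 was at the level of projection neurons and at E14.5 above it. Zic4 had 8.79 CPM in the P0 KO and 0 in the P0 WT, against 408 in the library labelled E14.5 knockout and 85.4 in the E14.5 WT. Its P0 levels are 2 counts or fewer, so its fitted fold is no bound. Zic2 had 17.6 CPM in the P0 KO and 29.3 in the P0 WT, against 96.7 in the library labelled E14.5 knockout and 139 in the E14.5 WT (log2 -2.30, edgeR adjusted p = 0.026).

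Few of the cells with Zic1 held these caudal genes. Prox1 was present in 7 of 55 cells with Zic1 and in 51 of 128 cells without it, and Nr2f2 in 4 of 55 and 49 of 128. These counts pool the libraries, and 40 of the 55 cells came from the library labelled E14.5 knockout. There Prox1 was present in 4 of 40 cells with Zic1 and 11 of 39 without it, and Nr2f2 in 3 of 40 and 21 of 39. In the E14.5 WT each was present in 1 of 6 and 6 of 8 cells. Both shares were lower beside Zic1 in each P0 library too, with 6 Zic1 cells in the KO and 3 in the WT. Isl1 had no count in either P0 library, against 37 counts (156 CPM) in the library labelled E14.5 knockout and 6 counts (64.0 CPM) in the E14.5 WT (edgeR adjusted p = 0.00051). In the library labelled E14.5 knockout Isl1 was detected in 6 of 19 cells with Six3, another striatal factor, and in 8 of 60 cells without it. In the E14.5 WT it was detected in 3 of 5 cells with Six3 and in 1 of 9 without it. Some of the E14.5 Sp8 cells thus carried genes known from septal and striatal neurons, and whether these cells are interneurons was not tested.

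In the values that follow, the P0 pair is that of the KO and the WT, and the E14.5 pair that of the library labelled knockout and the WT. Nfib had 3792 and 4148 CPM at P0, against 1173 and 1377 CPM at E14.5 (log2 1.61, SE 0.26, edgeR adjusted p = 0.00071). Htr3a had 185 and 264 CPM at P0, against 67.3 and 85.4 CPM at E14.5 (1.56, SE 0.40, adjusted p = 0.033). Prokr2, the prokineticin receptor used in olfactory bulb neurogenesis, had 15 and 12 counts at P0 in the KO and WT and none at E14.5. Plxna4, a semaphorin receptor, was higher by 1.51 (0.044). Spon1, an extracellular matrix protein, had 237 and 252 CPM at P0, against 12.6 and 32.0 CPM at E14.5 (3.65, SE 0.52, edgeR adjusted p = 0.00024). Parm1 (3.17) followed, with Mob3b (3.08) and Pam (2.98). Bcan, a proteoglycan of the brain matrix, had 87.9 and 99.7 CPM at P0 and no count at E14.5, and Csrp1 had 105 and 52.8 CPM and no count at E14.5. Igfbp5 had 149 and 82.1 CPM at P0, Cacng5 154 and 52.8 CPM and Inka2 61.5 and 117 CPM, against 4.20 and 0 CPM at E14.5 for each of these 3 genes. Fabp7 and Ptprz1 of the radial glia list were also higher (3.87 and 1.77), and Fabp7 was lost without the cells that carry blood or glial markers (adjusted p = 0.11).

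Nr2f2 had 141 CPM in the P0 KO and 246 in the P0 WT, against 408 in the library labelled E14.5 knockout and 491 in the E14.5 WT (log2 -1.25, SE 0.32, edgeR adjusted p = 0.032). Pbx3 had 123 and 182 CPM at P0, against 336 and 331 CPM at E14.5 (-1.18, 0.049). Slc18a2, the vesicular monoamine transporter, had 8.79 and 35.2 CPM at P0, against 164 and 395 CPM at E14.5 (-3.66, 0.00063). Dcc, the netrin receptor (-2.24), and Epha5 (-2.50) of the guidance list were lower, as were Gfra1, Syt1 (-2.02), Gria1 (-2.19), Cacna2d2 (-2.86), the GABA-degrading enzyme Abat (-2.06) and the RNA-binding protein Igf2bp1 (-2.46). Camk2a (-4.03), Plxna1 (-3.53), Peg10 (-3.47), Zfhx3 (-3.47), Zdbf2 (-3.31) and Lrrn3 (-3.13) completed the genes with the largest decreases. The haemoglobins Hbb-bt, Hbb-bs and Hba-a2 were lower only through the single E14.5 WT cell.

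Many of these age calls were lost when 1 library was left out. Each such fit sets 1 mouse against 2, takes its spread from the other age alone and assumes that the lone mouse varies alike. There were 113 calls in all, 29 by DESeq2, 34 without the library labelled E14.5 knockout, 59 without the P0 KO, 99 without the P0 WT and 305 without the E14.5 WT. Zic1, Zic4, Isl1, Nfib, Slc18a2 and Spon1 passed under each alternative run, within that limit. Over the alternatives the log2 difference ran from 2.76 to 3.41 for Parm1, -4.22 to -3.81 for Camk2a and -3.31 to -2.89 for Lrrn3, all among the calls lost below or by DESeq2, and from 1.52 to 4.73 for Fabp7. Without the library labelled E14.5 knockout, Nr2f2 (adjusted p = 0.11), Htr3a (0.41), Prokr2 (0.30), Zic2 (0.30), Dcc (0.36) and Epha5 (0.11) were lost, as were Pbx3, Plxna4, Bcan, Csrp1, Igfbp5, Cacng5, Inka2, Fabp7, Parm1, Mob3b, Pam, Zfhx3, Zdbf2, Abat, Igf2bp1, Syt1, Gria1 and Cacna2d2. Without the P0 KO, Nr2f2 (0.68), Pbx3 (0.70), Zic2, Plxna4, Gfra1, Gria1, Abat, Igf2bp1, Bcan, Igfbp5, Inka2, Pam, Camk2a, Peg10, Zdbf2 and Lrrn3 were lost. Without the P0 WT, Htr3a (0.39), Pbx3, Prokr2 (0.16), Ptprz1, Cacna2d2, Inka2, Mob3b and Pam were lost. Without the E14.5 WT, Cacna2d2 and Gfra1 were lost. DESeq2 called none of Nr2f2 (0.37), Htr3a (0.52), Pbx3 (0.61), Prokr2 (0.12), Zic2 (0.40), Plxna4 (0.63) and Fabp7 (0.18). Among the 10 largest increases and 10 largest decreases named with age, 13 genes were lost in DESeq2, Fabp7 being 1 of them. Plxna1 was lost in at least 1 alternative. With at least 4 counts of inhibitory genes per cell, Nr2f2 (0.11), Pbx3 (0.11) and Fabp7 (0.20) were lost.

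**Figure D4:**
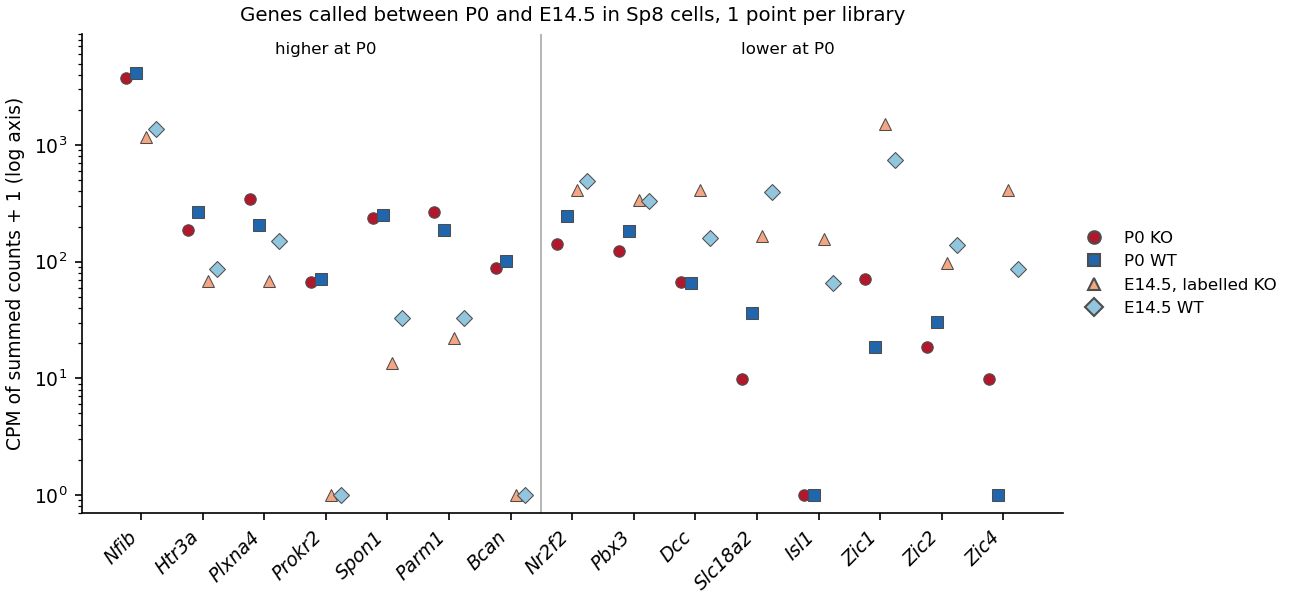
Level in CPM + 1, on a log axis, in the summed Sp8 cells of each library, for genes higher at P0 (left group) and lower at P0 (right group) at an edgeR adjusted p under 0.05. Zic1 stood at 70.3 and 17.6 CPM in the P0 KO and WT, against 1514 and 736 CPM in the library labelled E14.5 knockout and the E14.5 WT.

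Between the P0 KO and the P0 WT, the ratios of the summed lineage genes in Sp8 cells were lower after thinning, with overlapping intervals. The rule was applied again to the thinned cells, so the set of cells changed along with depth. The caudal list summed to 1555 CPM in the KO and 1819 CPM in the WT (log2 ratio -0.23, 95% counting interval -0.45 to -0.00), and the dorsal lateral list to 3915 CPM in the KO and 3889 CPM in the WT (0.01, -0.14 to 0.16). With every cell thinned to 1500 counts, which left 30 Sp8 cells in the KO and 24 in the WT, the ratios were -0.77 (-1.32 to -0.22) for the caudal list and -0.29 (-0.60 to 0.02) for the dorsal lateral list. Genes with at least 30 counts over both libraries numbered 3004, of which 104 were at least 2-fold higher in the KO (3.46%) and 78 at least 2-fold lower (2.6%). At a minimum of 100 counts, 3 of 752 genes were higher and 6 lower. With 1 mouse each there is no test, and differences between 2 animals of any kind are part of these ratios. The median over all 3004 genes was 0.02.

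Caudal genes did not move together. Prox1 had 387 CPM in the P0 KO and 211 in the P0 WT (0.87, 0.30 to 1.47), while Nr2f2 had 141 in the KO and 246 in the WT (-0.81, -1.52 to -0.11), Adarb2 141 in the KO and 241 in the WT (-0.77, -1.49 to -0.07) and the cannabinoid receptor Cnr1 105 in the KO and 205 in the WT (-0.96, -1.77 to -0.17). None of the 7 measured caudal genes passed 2-fold. In the dorsal lateral list Tshz1 (0.58, 0.03 to 1.15) was higher in the KO. Meis2 (-0.14, -0.35 to 0.08), Pax6 and Etv1 had intervals that held 0. In the GABA lineage list 7 of 9 measured genes were above 0, with Dlx1 at 2856 CPM in the KO and 1989 CPM in the WT (0.52, 0.33 to 0.72) and the vesicular GABA transporter Slc32a1 at 0.87 (0.05 to 1.75).

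The genes with the largest ratios not carried by 1 cell were led by Mrpl9, a mitochondrial ribosomal protein, at 114 CPM in the P0 KO and 23.5 CPM in the P0 WT (2.28, 0.76 to 4.26), with Gtf2a1 (2.26), Mat2b (2.12), Dut (2.02), Cdon (1.90), D5Ertd579e (1.90), Flot1 (1.75) and Rif1 (1.72). Cdon, a co-receptor for sonic hedgehog, had 176 CPM in the KO and 46.9 CPM in the WT. Lower in the KO were Zfp536, at 17.6 CPM in the KO and 164 CPM in the WT (-3.22, -5.20 to -1.71), Camk2n1, an inhibitor of CaMKII, at 26.4 CPM in the KO and 188 CPM in the WT (-2.83, -4.38 to -1.55), and Hmgcs1, an early enzyme of cholesterol synthesis, at 119 CPM in the KO and 422 CPM in the WT (-1.83, -2.53 to -1.18). Rangap1 (-1.88), Gm56999 (-1.85), Polr1g (-1.64), Agap3 (-1.53) and Ptprf (-1.48) completed the decreases. The radial glia list was 1.46 lower on the log2 scale in the KO, and 0.13 higher (-0.22 to 0.48) without the cells that carry blood or glial markers. Tsku itself had 0 counts in the KO Sp8 cells and 1 in the WT Sp8 cells.

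Between the library labelled E14.5 knockout and the E14.5 WT, the Zic genes differed unevenly. Zic1 had 1514 CPM in the library labelled E14.5 knockout and 736 in the WT (1.04, 0.66 to 1.43), Zic4 had 408 in the library labelled E14.5 knockout and 85.4 in the WT (2.26, 1.22 to 3.51) and Zic5 had 299 against 42.7 in the WT (2.81, 1.39 to 4.72). Zic2 (-0.52) was below 0. Of 2507 genes measured, 243 were at least 2-fold higher in the library labelled E14.5 knockout (9.69%) and 112 lower (4.47%). The E14.5 WT sum comes from 14 cells and 93700 counts.

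Of the caudal genes, Prox1 had 114 CPM in the library labelled E14.5 knockout and 277 in the WT (-1.29, -2.12 to -0.45), the opposite side of 0 from P0, and Nr2f2 408, against 491 in the WT (-0.27). Of the dorsal lateral genes, Etv1 had 114 in the library labelled E14.5 knockout and 309 in the WT (-1.45, -2.26 to -0.64) and Meis2 1976, against 1601 in the WT (0.30, 0.04 to 0.58). Of the Etv1 counts of both libraries, 28.6% lay in 1 of the 5 WT cells that held it. The genes furthest above 0 at E14.5 also included Snhg11 (3.87), Map3k7 (3.66), Dact1 (3.56), Ppp2r2b (3.18), Bud31 (3.05), Ercc5 (2.98) and Cdkn1c, a cell cycle inhibitor, at 294 CPM, against 21.3 CPM in the WT (3.79, 1.88 to 6.86). These had 1 or 2 counts in the WT, so their ratios are wide. Lower were Sema4c, at 42.0 CPM, against 288 CPM in the WT (-2.78), Atp5me (-2.47) and Slirp (-2.28). Also lower were the ribosomal protein genes Rps28 (-3.31), Rps25 (-2.44), Rps20 (-2.15), Rpl27a (-2.10) and Rpl26 (-2.07). These ribosomal genes have near-identical copies in the genome and are uncertain in counts. All of these genes were also lower under the knockout label in E14.5 Lhx6 cells, whose values follow with the WT second. Rps28 had 99.1 and 799 CPM, Rps25 114 and 533, Rps20 233 and 652, Rpl27a 109 and 328, and Rpl26 111 and 466. Atp5me had 51.2 and 252 CPM, Slirp 69.3 and 162, and Sema4c 54.5 and 99.9. These decreases were thus not limited to Sp8 cells, and their cause was not tested. In other lists, striatal Isl1 (1.28), medial Mef2c (1.69), the guidance genes Nrp2 (1.90), Dcc (1.35) and Vldlr (1.28) and radial glia Ptprz1 (1.79) were past 2-fold higher in the library labelled E14.5 knockout. Past 2-fold lower were striatal Foxp2 (-1.65), the guidance gene Plxna4 (-1.15), the calcium channel subunit Cacna2d2 (-1.17) and the immediate early gene Egr1 (-1.07). Of the Foxp2 counts of both libraries, 46.4% lay in 1 WT cell. By list medians the haemoglobins (-6.40, 4 genes, from 1 WT cell) and the radial glia list (1.79, 3 genes) were further from 0 than the Zic list (1.04).

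**Figure D5:**
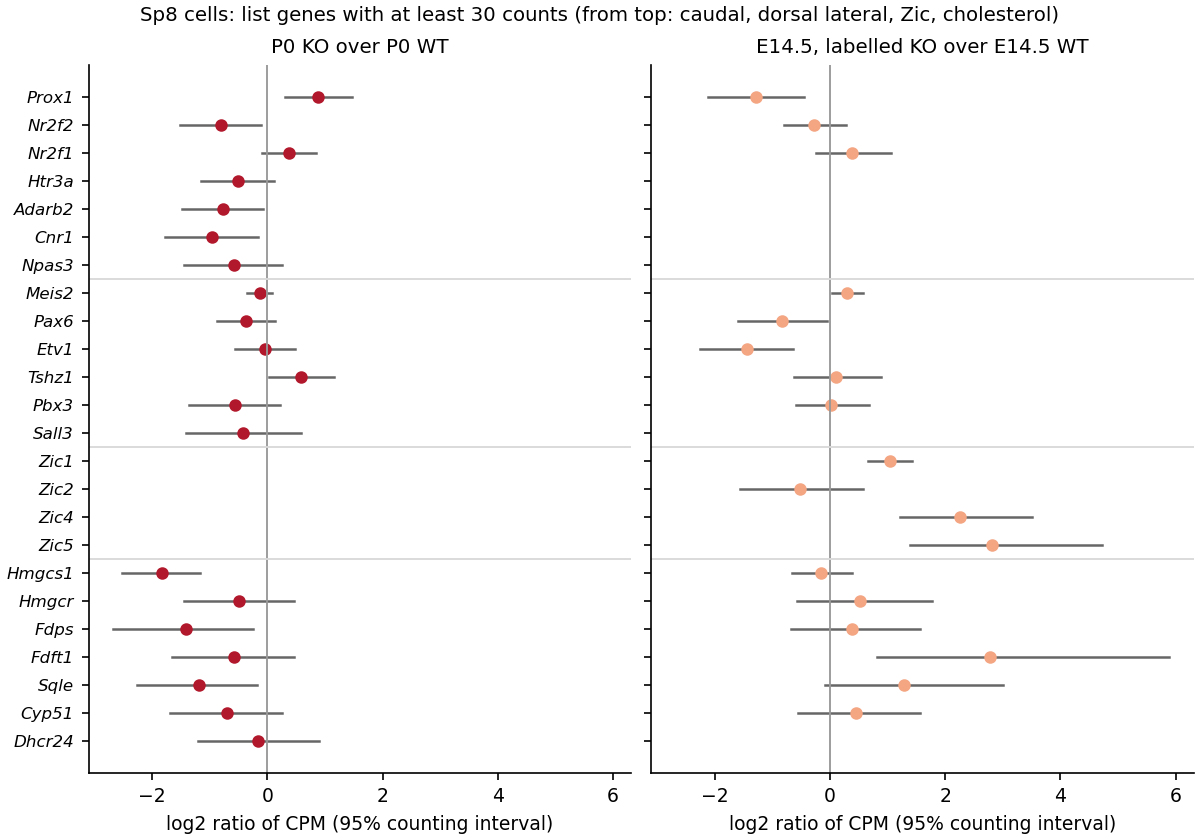
log2 ratio of CPM in Sp8 cells, P0 KO over P0 WT and library labelled E14.5 knockout over E14.5 WT, with 95% counting intervals, for reported genes of the caudal, dorsal lateral, Zic and cholesterol lists with at least 30 counts. Prox1 lies at 0.87 at P0 and at -1.29 at E14.5, and Meis2 at -0.14 at P0 and 0.30 at E14.5.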

How the data were processed

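The deposited files give, per library, whole-number counts per gene and cell barcode over 57126 features. Per the submitters' processing notes the build was GRCm39 and FastQC 0.12.1, Seurat 5 and R 4.3.2 were used. No source used here gives the aligner, the counter or its strand setting. Cells were filtered and gated on the deposited counts as described in the opening; no doublet caller was run, and cells holding markers of another type were instead left out in alternatives. Counts were summed per library and gate. The animal is the replicate.

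Sums were tested with edgeR 4.0.16 in R 4.3.3 (TMM, filterByExpr, quasi-likelihood, adjusted p under 0.05), after a check on simulated counts with an assumed spread. A simulated log2 difference of 1 was called in 16.7% of genes for Sp8 against Lhx6 cells, 6.54% against other inhibitory cells and 6.59% by age. For a log2 difference of 2 the shares were 84.8%, 72.0% and 59.6%. Genes that did not pass may thus still differ 2-fold. DESeq2 1.42.0 was an alternative. Single libraries were compared by ratios of CPM with conditional binomial 95% intervals, genes with at least 30 counts, and shares with Clopper-Pearson intervals (Python 3.11.15, scipy 1.17.1). Named genes were the rule genes, the 4 lineage lists, the 10 highest and 10 lowest log2 differences among calls with the same direction in every library, and the 8 highest and 8 lowest ratios whose interval leaves out 0 and of whose counts no cell holds over 25%; sex-linked genes, mitochondrial genes, haemoglobins and IDs without a symbol were left out of these rankings. Other genes named come from the gene lists. Some list genes are not reported here, and stay in the list counts and sums. The members and the 24 lists were chosen with earlier results of these data known, and the cholesterol list and the alternative without blood or glial markers after seeing these results. The fitted difference of a gene near 0 in one group depends on the prior count.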

Additional observations from a re-analysis of the deposited data

Results flagged for a closer look

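Of 63 reported list genes measured in Sp8 cells at both ages, 6 had ratios of KO to WT on opposite sides of 0 at P0 and E14.5 with both intervals leaving out 0, and each difference between ages was not tested. The E14.5 value compares the library labelled E14.5 knockout with the E14.5 WT. On the log2 scale, Prox1 had 0.87 at P0 and -1.29 at E14.5, Plxna4 0.76 and -1.15, Egr1 0.94 and -1.07, Tubb2b 0.12 and -0.71, Ptprz1 -1.0 and 1.79, and Foxp2 4.79 and -1.65. Foxp2 at P0 was 37 counts in 5 cells of the KO, against 1 count in the WT. At E14.5 it was 25 counts in the library labelled E14.5 knockout and 31 in the WT. Of the counts of both, 46.4% lay in 1 WT cell. Of the summed lists, 5 also had ratios on opposite sides of 0 with both intervals leaving out 0. Again with the P0 value first, radial glia had -1.46 and 1.43, the haemoglobins 0.84 and -6.64, and neuron maturation and synapse -0.14 and 0.21. Immediate early genes had 0.30 and -0.49, and cholesterol synthesis -1.06 and 0.50. The haemoglobin value at E14.5 comes from 1 WT cell, and the radial glia value at P0 from few WT cells.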

How the results depend on the processing

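Each group is 1 animal, so the precision of KO against WT is limited to counting error, and 14 cells set it for the E14.5 WT. Counts of calls moved most. Sp8 against Lhx6 cells gave 133 calls, 414 with no filter on low counts and 53 to 222 with 1 library left out. Sp8 against other inhibitory cells gave 82, 45 with at least 4 counts of inhibitory genes per cell, 258 with no filter and 29 to 128 with 1 library left out. P0 against E14.5 gave 113, 29 by DESeq2, 185 with the genotype label as a term and 34 to 305 with 1 library left out. Genes past 2-fold at P0 numbered 182, 1109 at a minimum of 10 counts, 9 at 100 counts and 24 after thinning; at E14.5 they numbered 355, with 1367, 34 and 66 under the same settings and 231 with at least 4 counts of inhibitory genes. After thinning to 1500 counts the caudal sums gave log2 ratios of -0.77 (P0 KO over WT), -1.04 (E14.5), -0.50 (P0 over E14.5 in WT) and -0.22 (P0 over E14.5 under the KO label, the other side of 0 from the 0.29 of all counts), and the dorsal lateral sums -0.29, 0.46 and 0.92 for the first 3; the cause was not tested. The radial glia sum at P0, KO over WT, was -1.46 in all Sp8 cells, 0.19 with at least 4 counts of inhibitory genes and 0.13 without blood or glial markers, which leaves out few WT cells. No gene of the rankings by log2 difference or ratio changed direction in an alternative that measured it. Other list genes were not part of this check. Sp8 cells were compared with other cells of the same mice with the library as block. No paired analysis was possible for KO against WT or for P0 against E14.5 because no replicate number pairs animals. For KO against WT each group is 1 animal, and for P0 against E14.5 each age is 2 animals.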

Other observations

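Cholesterol synthesis genes, a list chosen after the ratios had been seen, summed to 839 CPM in Sp8 cells of the P0 KO, 1748 CPM in the P0 WT, 1825 CPM in the library labelled E14.5 knockout and 1291 CPM in the E14.5 WT. At P0 all 7 measured genes were lower in the KO, 3 of them past 2-fold, Hmgcs1 (-1.83), Fdps (-1.42) and Sqle (-1.19), beside 78 of 3004 genes (2.6%) at least 2-fold lower overall. The sum was -1.06 on the log2 scale (-1.33 to -0.79), -0.91 without cells that carry blood or glial markers and -0.45 (-1.08 to 0.18) with cells thinned to 1500 counts. Lhx6 cells held 845 CPM in the P0 KO and 1179 CPM in the P0 WT, and the other inhibitory cells 1461 CPM in the P0 KO and 1652 CPM in the P0 WT.

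The Sp8 cells held 445 of the 1012 Sp8 counts in passing cells (44.0%). A further 366 counts lay in 115 cycling cells with inhibitory genes, 89 counts in 72 cycling cells without them, and 54 counts in 48 cells with radial glia genes. Another 16 counts lay in 13 cells outside the cycle with at least 2 counts of the glutamatergic genes, under 2 of the inhibitory genes and under 10 of the radial glia list.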
